A study of Mus musculus with 4 samples.

Results

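Collagens, laminins and integrins build the matrix around cells and the receptors that hold on to it. They were taken here as every gene whose symbol is a numbered collagen chain (Col), laminin chain (Lama, Lamb or Lamc) or integrin subunit (Itga or Itgb). This gave 74 genes of 23435 in the tables, namely 44 collagen, 11 laminin and 19 integrin genes, and every one of them had a value in every library. The rule reads symbols alone, though it was set with earlier results of these data known. Integrin genes with a letter in place of the number, such as Itgav, Itgam and Itgal, fall outside it and are named only where a partner chain calls for them.

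Collagens are trimers of chains wound into a triple helix, and each type is put together from its own set of chains. Types such as I, II, III, V and XI form fibrils, fibril-associated types such as IX, XII, XVI and XX sit on fibrils, and type IV forms the network of basement membranes. Laminins are trimers of an alpha, a beta and a gamma chain and are the other main part of basement membranes. Integrins are pairs of an alpha and a beta subunit that bind these proteins and link them to the cytoskeleton. In oligodendrocytes, the cells that myelinate axons in the central nervous system, laminin receptors with the beta1 subunit are known to act in survival and in the extension of processes.

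The samples were mouse oligodendrocytes grown from primary precursors for 1 day in the presence of T3, the thyroid hormone that starts their differentiation. The study asked which genes differ in expression after depletion of the long noncoding RNA lncOL1. 2 samples were controls, whose genotype label names lncOL1+/+ and lncOL1+/- without saying which applies to which sample, and 2 were lncOL1-/- knockouts, all on a mixed strain background. The labels do not say that the samples of a group came from separate animals or cultures, so the p-values cover only how far these 4 samples spread, and that spread may be technical. The sources used here do not say how lncOL1 was removed or how the precursors were purified.

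Levels are FPKM, fragment counts scaled to transcript length and to the mapped fragments of the library, and so can be compared between genes. Each library held between 11284 and 11357 genes at 1 FPKM or more, and read counts are not in the files, so depth is unknown. lncOL1 (listed as 9630013A20Rik) was at 28.9 and 34.01 FPKM in the controls and at 5.54 and 5.06 in the knockouts. The oligodendrocyte label fits its defining markers, with Olig2 at 253.1 to 302.8 FPKM and Sox10 at 435.6 to 495.8 over the 4 libraries. The authors also deposited a table with 1 pooled FPKM per group, and its levels differ for some genes. Olig2 is at 177.8 FPKM for the controls and 189.9 for the knockouts there. Levels of different genes are therefore compared only roughly. Mbp, the myelin basic protein gene, was at 2683 and 2655 FPKM in the controls and 1501 and 1520 in the knockouts. Astrocyte markers were also present, with Gfap at 196.3 to 236.6 FPKM. Since these are bulk samples, fewer cells of a type and less RNA per cell cannot be told apart.

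Most of the genes were weakly expressed. By mean FPKM over the 4 libraries, 4 members were at 50 or more, 6 from 10 to 50, 14 from 1 to 10, 31 from 0.1 to 1, and 19 were below 0.1. The 4 most abundant were Itgb1, the shared beta subunit of most matrix receptors, with a mean of 124.3 FPKM, and the collagen genes Col11a1 (96.2), Col16a1 (72.7) and Col20a1 (61.4). All members together made up 0.135% and 0.128% of the summed FPKM in the controls and 0.145% and 0.146% in the knockouts. The summed FPKM of the collagens was 295.0 and 262.7 in the controls and 331.1 and 340.5 in the knockouts, whereas the sums were 173.3 and 170.2 against 176.1 and 165.0 for the integrins and 47.9 and 46.7 against 45.5 and 44.0 for the laminins.

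**Figure D1:**
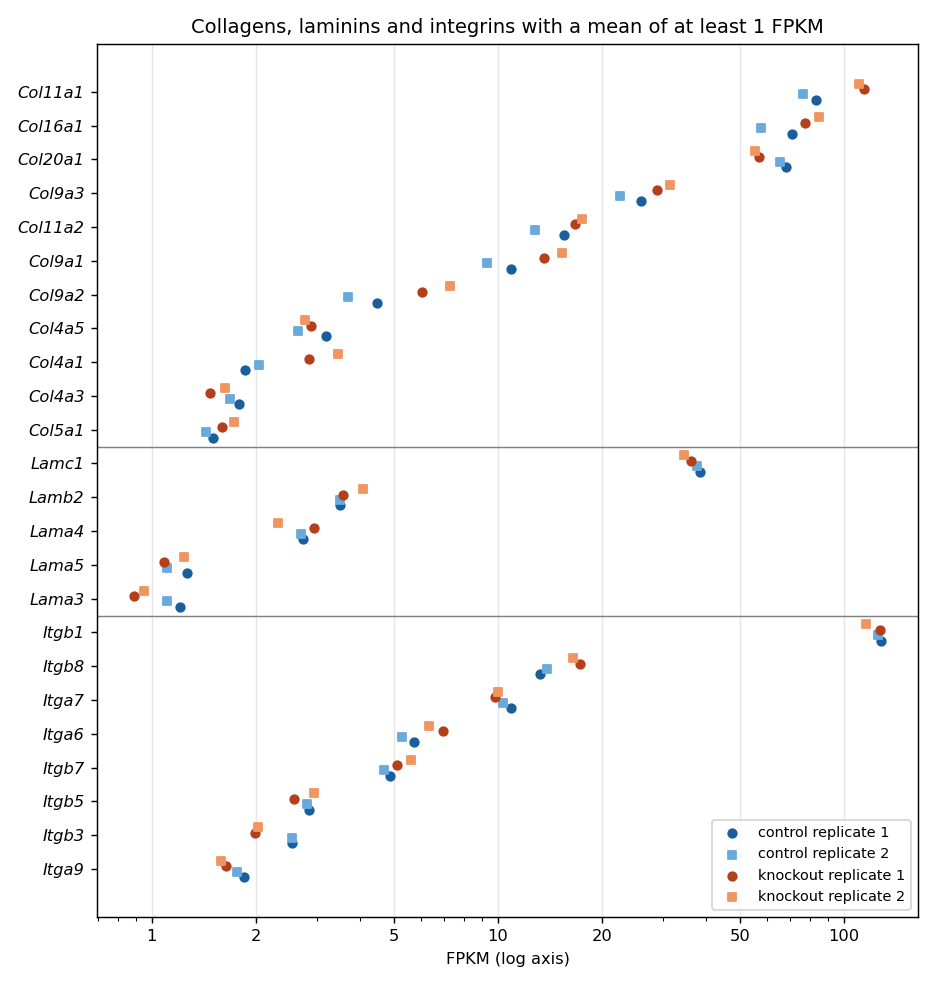
FPKM on a log axis of the 24 members with a mean of at least 1, 1 point per library, with collagens, laminins and integrins in blocks from top to bottom and sorted by mean. In the collagen block Col11a1, Col16a1, Col9a3, Col11a2, Col9a1, Col9a2, Col4a1 and Col5a1 have both knockout points to the right of both control points, while Col20a1 and Col4a3 have them to the left.

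The 24 members with a mean of at least 1 FPKM entered the limma fit of log2(FPKM + 1) for knockout minus control, in which a gene is called at a Benjamini-Hochberg adjusted p under 0.05 over all 11361 genes tested. 1 member, Col11a1, was called higher and 0 were called lower, against 1.31% of all tested genes called (0.528% higher and 0.783% lower). By unadjusted p (threshold 0.05), 9 members were higher and 2 lower, against 7.13% and 6.58% of all tested genes. These 11 were 8 of the 11 tested collagens and 3 of the 8 tested integrins, and 0 of the 5 tested laminins. The median log2 fold change was 0.31 for the tested collagens, -0.04 for the integrins and -0.04 for the laminins, against 0.005 for all tested genes. In 12 tested members both knockout libraries lay above both controls and in 7 they lay below, against 22.6% and 20.7% of all tested genes. The filter on the mean decides which members are counted here, so these counts and medians describe the 24 and not the family. The authors' deposited table, made from the same libraries and so not independent, tested 33 members and gives q under 0.05 for 7 higher and 2 lower, against 1.74% and 4.04% of the genes it tested (5.78% in all).

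**Figure D2:**
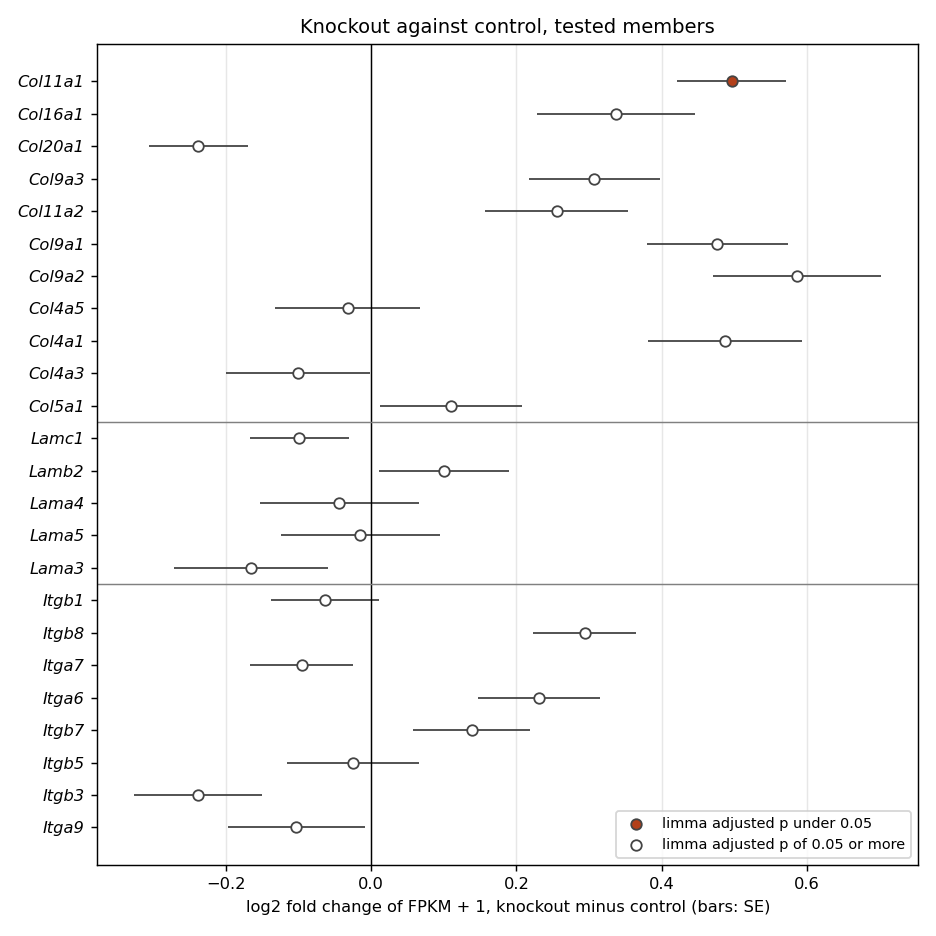
Log2 fold change of FPKM + 1, knockout minus control, for the 24 tested members, with bars of 1 SE from limma, in blocks of collagens, laminins and integrins. Col11a1 is the filled point, the only one with an adjusted p under 0.05, and the points furthest to the right are Col9a2, Col11a1, Col4a1 and Col9a1.

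Col11a1 encodes the alpha1 chain of type XI collagen, a fibril-forming chain that sets fibril diameter in cartilage. It lies on chromosome 3 (114030540 to 114220326, mm10). It was at 83.2 and 76.1 FPKM in the controls and at 115 and 111 in the knockouts. Both knockouts were above both controls. The log2 fold change was 0.50 (± 0.075 SE, with adjusted p = 0.0379 from limma), a rise of 1.41-fold on the FPKM + 1 scale. In the authors' deposited table its log2 fold change is 0.46 with q = 1.31e-10. Without control replicate 1, control replicate 2, knockout replicate 1 and knockout replicate 2 in turn, the limma adjusted p was 0.137, 0.229, 0.211 and 0.251, and with no filter on low values it was 0.111, so the call was lost in each of these fits. The log2 fold change itself lay between 0.43 and 0.56 with a library left out and was 0.50 with no filter. With the filter lowered to 0.1 FPKM Col11a1 was still called (adjusted p = 0.0480).

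Col11a2, the partner chain of Col11a1 in type XI, was at 15.5 and 12.8 FPKM in the controls and at 16.7 and 17.5 in the knockouts. Its log2 fold change of 0.26 did not pass the test (± 0.099 SE, with adjusted p = 0.321 from limma), and it was 0.38 without control replicate 1 and 0.13 without control replicate 2. Col11a1 exceeded Col11a2 by 5.35 to 6.88 times over the 4 libraries. Type V chains, which can join type XI chains in mixed trimers, were far lower, with Col5a1 at 1.503 and 1.43 FPKM in the controls and 1.60 and 1.73 in the knockouts. Col5a3 was at 0.920 and 0.729 against 0.969 and 1.08. Col2a1, the cartilage chain that forms fibrils together with types IX and XI, was at 0.466 and 0.385 FPKM in the controls and 0.362 and 0.372 in the knockouts. The type XI chains were thus expressed with little type II message.

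The 3 type IX chains were expressed and all 3 were higher in both knockouts than in both controls, though none passed the test. Type IX is a fibril-associated collagen made of 1 chain from each of Col9a1, Col9a2 and Col9a3. Col9a1 (chromosome 1, 24177610 to 24252738) was at 10.9 and 9.33 FPKM in the controls and 13.6 and 15.3 in the knockouts, with a log2 fold change of 0.48 (± 0.098 SE, with adjusted p = 0.0884 from limma). Col9a2 (chromosome 4, 121039566 to 121055325) was at 4.49 and 3.70 against 6.02 and 7.28, with a log2 fold change of 0.59 (± 0.12 SE, with adjusted p = 0.0794 from limma), the largest among the tested members. Col9a3 (chromosome 2, 180598222 to 180622185) was at 25.9 and 22.6 against 28.9 and 31.4, with a log2 fold change of 0.31 (± 0.090 SE, with adjusted p = 0.198 from limma). The ratio of the most to the least abundant chain, Col9a3 over Col9a2, was 5.76 and 6.10 in the controls and 4.80 and 4.32 in the knockouts. In GENCODE M21, 6.07% of the exon bases of Col9a3 lie over exons of Tcfl5 on the opposite strand, and reads there cannot be assigned without knowing whether the counting used strand. The authors' deposited table gives q = 4.76e-05 for Col9a1, q = 0.00139 for Col9a2 and q = 0.111 for Col9a3.

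The promoters of Col11a1, Col9a1 and Col9a2 are shown because these collagen chains had the largest log2 fold changes beside Col4a1. Each window runs from 250 bases before the RefSeq start to 50 after it (GRCm38.p6, the build named mm10), at chr3:114030290-114030589 (plus strand), chr1:24177360-24177659 (plus strand) and chr4:121039316-121039615 (plus strand), and is printed from 5′ to 3′ on the gene's strand. Capitals mark matches on either strand to 4 short motifs, and where matches overlap they run together. The first is the TATA box, searched with the letters TATAAA. Another is the CCAAT box, which is named by its own letters. The GC box bound by Sp family factors was searched with the letters GGGCGG. The core motif recognised by SOX proteins was searched with the letters ACAAAG.
Col11a1: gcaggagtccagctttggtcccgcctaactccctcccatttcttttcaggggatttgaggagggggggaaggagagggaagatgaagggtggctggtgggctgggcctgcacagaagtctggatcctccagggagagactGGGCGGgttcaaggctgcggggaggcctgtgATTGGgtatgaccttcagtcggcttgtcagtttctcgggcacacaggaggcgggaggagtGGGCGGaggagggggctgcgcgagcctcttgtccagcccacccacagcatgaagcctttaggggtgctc
Col9a1: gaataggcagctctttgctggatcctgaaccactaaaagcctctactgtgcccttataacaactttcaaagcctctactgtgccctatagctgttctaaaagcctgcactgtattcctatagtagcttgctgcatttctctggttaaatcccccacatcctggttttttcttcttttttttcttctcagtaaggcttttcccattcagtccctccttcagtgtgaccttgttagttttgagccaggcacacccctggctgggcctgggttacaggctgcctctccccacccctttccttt
Col9a2: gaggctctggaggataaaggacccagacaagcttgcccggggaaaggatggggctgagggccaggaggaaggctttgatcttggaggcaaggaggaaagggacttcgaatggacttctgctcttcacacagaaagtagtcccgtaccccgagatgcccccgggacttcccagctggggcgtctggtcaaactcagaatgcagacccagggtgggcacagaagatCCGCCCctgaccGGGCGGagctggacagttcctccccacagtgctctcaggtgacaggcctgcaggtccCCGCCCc

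Col11a1 held 2 GC boxes and 1 CCAAT box, Col9a2 held 3 GC boxes, and Col9a1 held 0 matches to any of the 4 motifs. Among the 32851 promoter windows of this length in the RefSeq table, 35.7% held a GC box, 37.4% a CCAAT box, 13.6% a TATA box and 18.7% the SOX core. RefSeq windows were found for 54 of the 74 members, in all 60 windows, of which 33 (55%) held a GC box, 16 (26.7%) a CCAAT box, 5 (8.33%) a TATA box and 7 (11.7%) the SOX core. A match is a match of letters and not a binding site.

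The other abundant fibril-associated chains moved in opposite directions without passing the test. Col16a1 (chromosome 4, 130047840 to 130099277) was at 70.8 and 57.8 FPKM in the controls and 77.4 and 85.0 in the knockouts, with a log2 fold change of 0.34 (± 0.11 SE, with adjusted p = 0.241 from limma), which was 0.48 without control replicate 1 and 0.19 without control replicate 2. Its 2 controls differed from each other by more than the nearer control differed from the nearer knockout. Col20a1 (chromosome 2, 180986535 to 181017540) was at 68.0 and 65.2 against 57.0 and 55.5, with a log2 fold change of -0.24 (± 0.068 SE, with adjusted p = 0.187 from limma). The groups of Col20a1 did not overlap and it was the one abundant collagen with lower values in the knockouts. In the authors' deposited table Col16a1 has q = 0.00529 and Col20a1 q = 1.11e-05, in the same directions.

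Type IV collagen genes lie in head-to-head pairs, and the data show which partner of each pair was expressed. Col4a1 and Col4a2, whose chains form the common network of all basement membranes, lie on chromosome 8 on opposite strands. Their loci as given in the deposited data have 2 bases between them. Col4a1 was at 1.85 and 2.05 FPKM in the controls and 2.84 and 3.44 in the knockouts, with a log2 fold change of 0.49 (± 0.11 SE, with adjusted p = 0.102 from limma). Col4a2, whose mean of 0.752 FPKM kept it out of the fit, was at 0.643 and 0.569 in the controls and 0.861 and 0.936 in the knockouts. Both genes were higher in both knockouts than in both controls. Col4a1 exceeded Col4a2 by 2.88 and 3.59 times in the controls and by 3.31 and 3.68 times in the knockouts, so the ratio showed no separation of the groups. The pseudocount of 1 matters at these levels, and with one of 0.1 the log2 fold change of Col4a1 was 0.66 (adjusted p = 0.0853 from limma). In the authors' deposited table Col4a1 has q = 0.000232 and Col4a2 q = 0.329.

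The windows around the 2 starts are printed because they overlap. They lie at chr8:11312777-11313076 (minus strand) and chr8:11312555-11312854 (plus strand), share 78 bases, and are given 5′ to 3′ on each gene's own strand with capitals as above.
Col4a1: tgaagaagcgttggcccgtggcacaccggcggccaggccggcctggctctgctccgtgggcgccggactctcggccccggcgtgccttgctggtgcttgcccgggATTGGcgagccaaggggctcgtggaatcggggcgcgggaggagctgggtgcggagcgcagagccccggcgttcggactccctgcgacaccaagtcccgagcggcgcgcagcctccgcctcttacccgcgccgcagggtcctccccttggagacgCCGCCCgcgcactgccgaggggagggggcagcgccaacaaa
Col4a2: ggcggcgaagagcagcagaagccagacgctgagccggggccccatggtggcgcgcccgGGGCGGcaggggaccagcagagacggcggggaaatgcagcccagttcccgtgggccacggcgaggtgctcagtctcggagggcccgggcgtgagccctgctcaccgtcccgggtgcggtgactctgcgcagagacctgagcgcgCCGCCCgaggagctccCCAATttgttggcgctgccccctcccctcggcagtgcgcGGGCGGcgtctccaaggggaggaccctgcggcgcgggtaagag

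The Col4a1 window held 1 GC box and 1 CCAAT box and the Col4a2 window 3 GC boxes and 1 CCAAT box, with neither a TATA box nor the SOX core in either. G and C made up 74% and 73.7% of the bases, against a median of 52.7% over all windows and 59.3% over those of the members. In GENCODE M21, unlike in the deposited loci, the 2 genes overlap, and their exons share 22 bases, 0.295% of the exon bases of Col4a1.

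The remaining type IV pairs were uneven. Col4a3 was at 1.79 and 1.68 FPKM in the controls and 1.47 and 1.63 in the knockouts, while Col4a4, which lies head to head with it on chromosome 1, was at 0.0306 and 0.0189 against 0.0258 and 0.0156. Col4a5 was at 3.19 and 2.65 against 2.88 and 2.77, and its X-linked partner Col4a6 at 0.638 and 0.531 against 0.547 and 0.519. The alpha3, alpha4 and alpha5 chains are known to assemble with each other, so message for 1 of these 3 was near 0. Col4a3 and Col4a5 had log2 fold changes of -0.10 and -0.03 (adjusted p = 0.748 and 0.941 from limma). In GENCODE M21, 5.65% of the exon bases of Col4a3 lie over an antisense transcript.

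**Figure D3:**
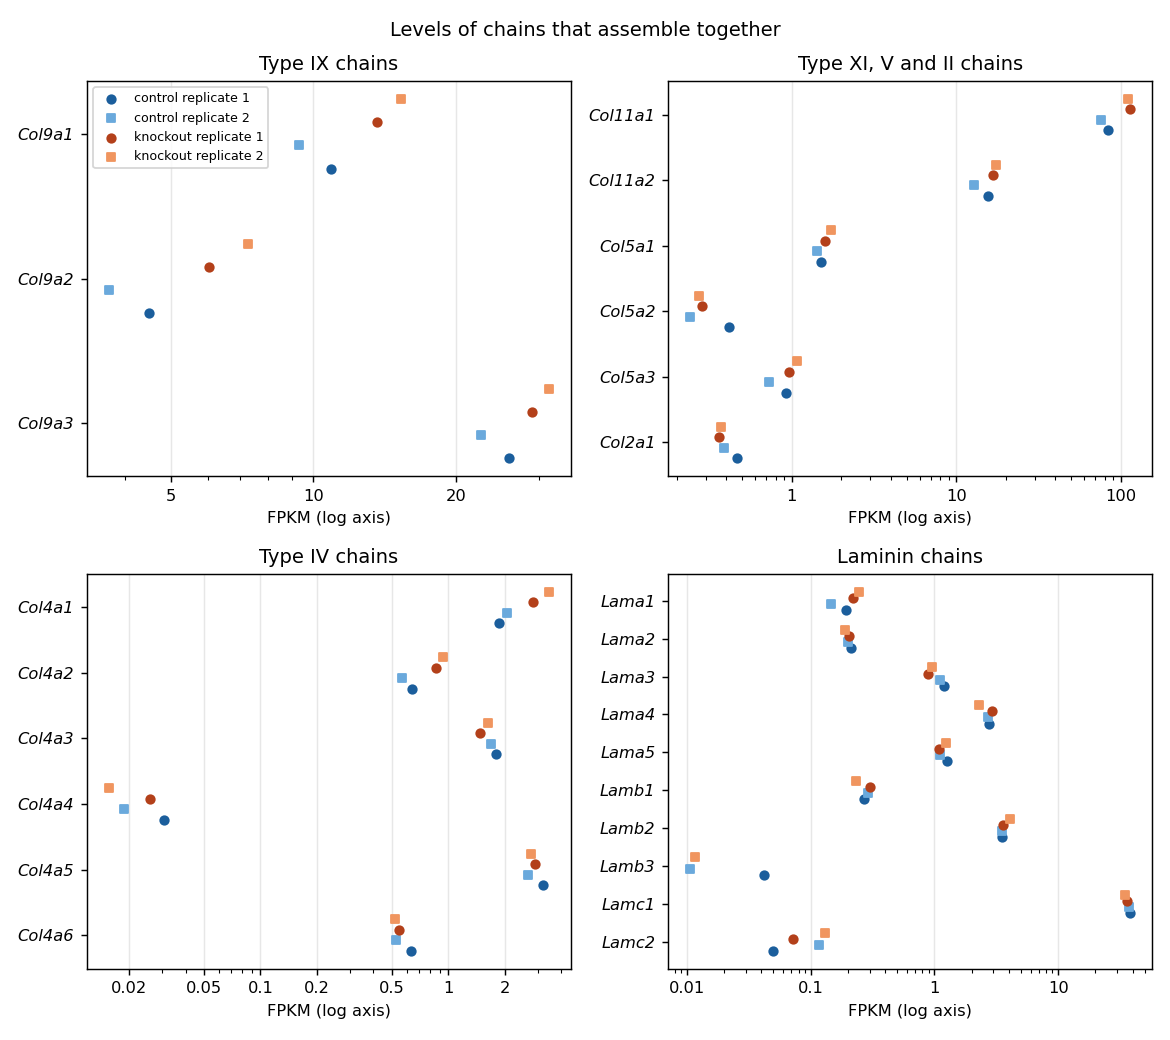
FPKM on a log axis for chains that assemble together, 1 point per library, in panels of type IX, of types XI, V and II, of type IV and of laminin chains, where Lamc3 is left out and values of 0, such as Lamb3 in knockout replicate 1, are not drawn. All chains of type IX have knockout points to the right of control points, Col4a4 lies far to the left of Col4a3, and Lamc1 lies far to the right of every other laminin chain.

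Laminin genes were expressed mainly as a gamma chain and had no calls. Lamc1, the gamma1 chain found in most laminins, was at 38.4 and 37.5 FPKM in the controls and 36.2 and 34.6 in the knockouts (-0.10 ± 0.068 SE as log2 fold change, with adjusted p = 0.618 from limma). The beta chains were much lower, with Lamb2 at 3.49 and 3.50 FPKM against 3.57 and 4.08, and Lamb1 at 0.272 and 0.294 against 0.301 and 0.234. Lamc1 therefore exceeded the sum of Lamb1 and Lamb2 by 8.01 to 10.2 times over the 4 libraries. The 5 alpha chains together came to 5.62 and 5.26 FPKM in the controls and 5.34 and 4.94 in the knockouts, and Lamc1 exceeded them by 6.77 to 7.13 times. Lama4, the alpha chain known from vessels, led them at 2.74 and 2.71 against 2.94 and 2.31. Lama5 was at 1.27 and 1.10 against 1.08 and 1.24 and Lama3 at 1.21 and 1.11 against 0.891 and 0.952. Lama2, the alpha2 chain whose loss causes a muscular dystrophy with white matter changes, was at 0.214 and 0.199 FPKM in the controls and 0.203 and 0.190 in the knockouts. The adjusted p of the tested laminins ranged from 0.582 for Lama3 to 0.976 for Lama5 by limma, and in the authors' deposited table no laminin has a q under 0.05.

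Among integrins, Itgb1 stood far above the rest. It was at 128.1 and 125.9 FPKM in the controls and 127.1 and 116.1 in the knockouts, and the groups overlapped (-0.06 ± 0.075 SE as log2 fold change, with adjusted p = 0.805 from limma). Its most abundant laminin-binding alpha partners were Itga7, at 10.9 and 10.3 FPKM against 9.78 and 9.99, and Itga6, at 5.74 and 5.27 against 6.97 and 6.31. Itga6 was higher and Itga7 lower in both knockouts than in both controls, with log2 fold changes of 0.23 (± 0.084 SE, with adjusted p = 0.291 from limma) and -0.10 (± 0.071 SE, with adjusted p = 0.645 from limma). Itgb4, the only other beta partner of alpha6, was at 0.218 and 0.214 against 0.0655 and 0.204. The receptor subunits for collagens were low, with Itga1 at 0.807 and 0.862 FPKM against 1.06 and 1.04 and Itga2 at 0.714 and 0.704 against 0.628 and 0.590. Itga10 and Itga11 had means of 0.235 and 0.0148 FPKM. Itga5, the fibronectin receptor subunit, had a mean of 0.170.

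The alphav subunit and its beta partners bind ligands with an arginine-glycine-aspartate motif, and alphav beta8 is known to activate latent transforming growth factor beta. Itgav itself was at 23.1 and 24.3 FPKM in the controls and 26.7 and 26.6 in the knockouts (0.16 ± 0.069 SE as log2 fold change, with adjusted p = 0.365 from limma). Itgb8 was at 13.3 and 13.9 against 17.2 and 16.5, and both knockouts were above both controls. Its log2 fold change of 0.29 was the largest among the tested integrins and did not pass the test (± 0.070 SE, with adjusted p = 0.127 from limma). Itgb3 was at 2.54 and 2.55 against 1.98 and 2.03, with a log2 fold change of -0.24 (± 0.088 SE, with adjusted p = 0.297 from limma). Itgb5 overlapped between the groups, at 2.84 and 2.81 against 2.58 and 2.94, and Itgb6 was at 0 in 3 libraries and 0.00935 in knockout replicate 2. The authors' deposited table gives q = 0.0169 for the higher Itgb8 and q = 0.0446 for the lower Itgb3. Itgav exceeded the sum of Itgb3, Itgb5, Itgb6 and Itgb8 by 1.23 to 1.27 times in all 4 libraries. With Itgav added to the 11 numbered alpha subunits, Itgb1 exceeded the summed alpha subunits by 2.90 and 2.84 times in the controls and 2.64 and 2.44 times in the knockouts.

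Of the other tested integrins, Itgb7, known from lymphocytes, was at 4.88 and 4.70 FPKM in the controls and 5.12 and 5.63 in the knockouts, and Itga9, a tenascin receptor subunit, at 1.85 and 1.76 against 1.64 and 1.58. Neither passed the test (adjusted p = 0.534 and 0.724 from limma).

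The 50 members below the filter were not tested, and their values are a description. Both knockouts lay above both controls in 17 of them and below in 8, against 20.6% and 12.4% of all genes above 0 and under the filter. Col12a1, a fibril-associated chain of dense connective tissue, was at 0.501 and 0.512 FPKM in the controls and 0.924 and 1.001 in the knockouts. The authors' deposited table gives it a log2 fold change of 0.90 with q = 6.23e-06. When the filter was lowered to a mean of 0.1 FPKM, Col12a1 had a log2 fold change of 0.38 on the log2(FPKM + 1) scale and a limma adjusted p of 0.105.

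Itgb2, the beta subunit shared by the leukocyte integrins, was at 0.293 and 0.287 FPKM in the controls and 0.718 and 0.624 in the knockouts, with no overlap. With the filter at 0.1 its limma adjusted p was 0.112, and the authors' deposited table gives q = 0.1004. Itgam, its alpha partner in microglia and other myeloid cells, was at 0.114 and 0.145 against 0.383 and 0.326. Markers of microglia moved with it. Of 15 matched markers, 12 were higher in both knockouts than in both controls and 0 lower, and their summed level was 19.9 and 21.96 FPKM in the controls and 37.9 and 43.0 in the knockouts. Over all genes such a separation upward was seen for 22.6% of those tested and 20.6% of those under the filter. Of 8 tested microglia markers limma called 3 higher, namely Tyrobp (adjusted p = 0.0119), Fcrls (0.00489) and Laptm5 (0.0101), and 5 markers have a q under 0.05 in the authors' deposited table, all higher. The defining markers Csf1r, Aif1, Cx3cr1 and C1qa were above 0 in every library, with Csf1r at 0.438 and 0.559 FPKM against 0.795 and 0.808. Their part in the collagen and integrin values was not tested.

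The chains of interstitial connective tissue were near the lower end. Col1a1 was at 0.592 and 0.688 FPKM in the controls and 0.522 and 0.274 in the knockouts, Col1a2 at 0.460 and 0.391 against 0.326 and 0.172, and Col3a1 at 0.375 and 0.421 against 0.242 and 0.184. These 3 were lower in both knockouts than in both controls, most so in knockout replicate 2. Among defining fibroblast markers, Lum was at 0.0980 and 0.0453 FPKM in the controls and at 0 in both knockouts, Dcn at 0.119 and 0.0507 against 0.0314 and 0, Dpt at 0.0318 and 0.0251 against 0.0334 and 0, Foxc1 was above 0 only in control replicate 2, and Twist1 was at 0 throughout. Over the whole fibroblast list, 7 of 20 markers were higher in both knockouts and 7 lower, and its sum, most of it Pdgfra, Ptgds and Igf2, was 62.8 and 61.9 against 73.5 and 79.1 FPKM. Pdgfra is also a marker of the oligodendrocyte lineage, the main cells here, so this sum does not measure fibroblasts alone. Of the 5 tested fibroblast markers limma called 1 higher, Igf2, from 10.1 and 9.25 to 18.9 and 18.8 FPKM (adjusted p = 0.00504). By unadjusted p from limma 3 of the 5 were higher and 1 lower, with a median log2 fold change of 0.60. The authors' deposited table has 2 higher and 1 lower among the 8 markers it tested. Over all genes, both knockouts lay above for 22.6% of those tested and 20.6% of those under the filter, and below for 20.7% and 12.4%. The part of these cells in the values of type I and III collagen was not tested.

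Of the type VI chains, which form beaded filaments, Col6a1 and Col6a2 overlapped between groups, with Col6a1 at 0.171 and 0.225 FPKM against 0.177 and 0.208. Markers of endothelium, which makes the type IV network and laminin of vessels, summed to 2.12 and 2.26 FPKM in the controls and 2.88 and 2.47 in the knockouts, with 2 of 12 higher in both knockouts and 0 lower. Of its defining genes, Pecam1 was at 0.180 and 0.0394 against 0.170 and 0.148, Cdh5 at 0 and 0.0641 against 0.0418 and 0.0224, and Cldn5 at 0 in 3 libraries and 0.0660 in knockout replicate 1. The mural cell list, with Tagln as its largest part, summed to 17.8 and 18.6 FPKM against 27.3 and 28.8. It includes Cspg4, which is also a marker of the oligodendrocyte lineage. Of its 13 genes, 4 were higher in both knockouts and 1 lower. Of the 4 tested mural markers limma called 2 higher, Tagln, from 7.04 and 7.35 to 14.6 and 14.6 FPKM (adjusted p = 0.00433), and Acta2, from 1.15 and 1.72 to 3.07 and 3.32 FPKM (adjusted p = 0.0488), and both have a q under 0.05 in the authors' deposited table. The median log2 fold change of the 4 was 0.53. The defining mural genes were Pdgfrb, at 0.290 and 0.216 against 0.195 and 0.0849, Rgs5, at 0 and 0.0571 against 0.139 and 0.0279, Myh11, at 0.0717 and 0.0517 against 0.0920 and 0.0717, and Kcnj8, at 0 throughout. Their part in the values of Col4a1 and Col4a2 was not tested. The markers of Schwann cells, peripheral glia that make a basement membrane, summed to 4.75 and 5.56 FPKM against 5.64 and 5.56, with 1 of 8 higher in both knockouts and 2 lower. Astrocyte markers summed to 809 and 766 against 757 and 722, with 1 of 12 higher and 7 lower, and neuron markers to 130.9 and 138.9 against 149.8 and 150.4, with 4 of 14 higher and 2 lower. The part of any of these cells in the values of the most abundant collagens was not tested. Shares over all genes stand beside the counts of these lists. Among genes tested, 22.6% were higher in both knockouts and 20.7% lower, and limma called 0.528% higher. Under the filter the shares were 20.6% higher and 12.4% lower.

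**Figure D4:**
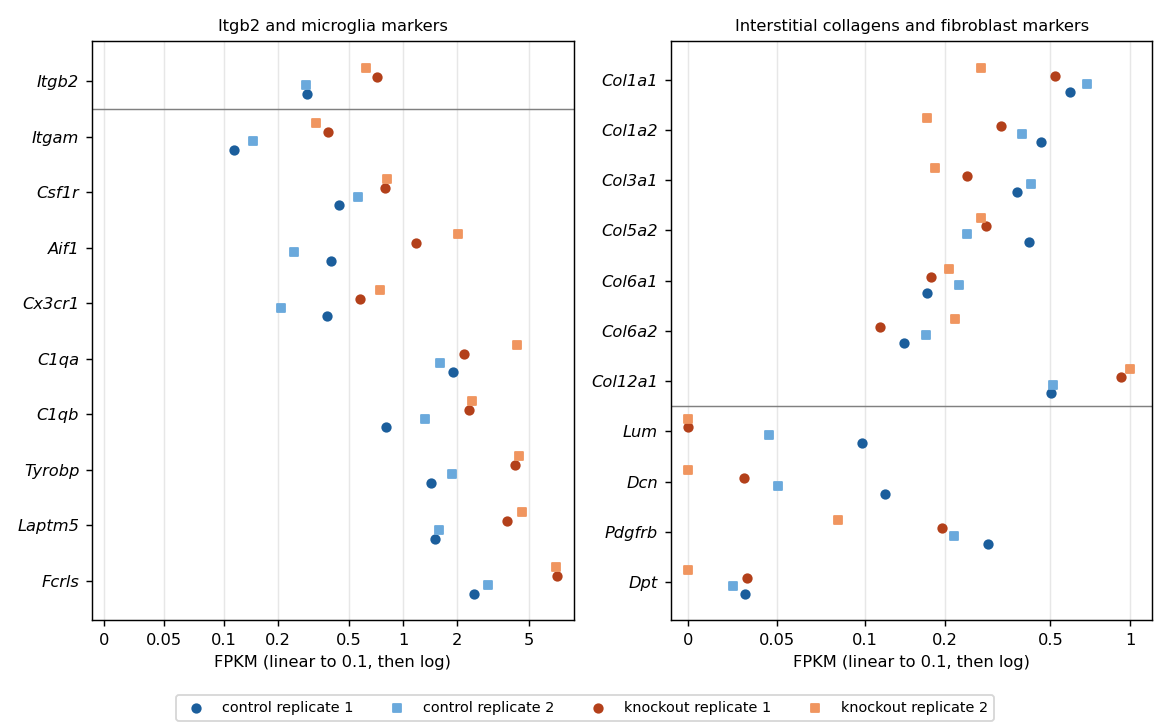
FPKM of Itgb2 above microglia markers (left) and of interstitial collagen chains above some genes of the fibroblast list (right), 1 point per library, on an axis that is linear up to 0.1 and logarithmic beyond. Pdgfrb is also a defining mural marker. Itgb2 and the microglia genes shown have both knockout points to the right of both control points. In the right panel Col1a1, Col1a2, Col3a1, Lum, Dcn and Pdgfrb have them to the left, with Lum at 0 in both knockouts. Col12a1 has them to the right, and Col5a2, Col6a1, Col6a2 and Dpt overlap. Of the whole fibroblast list, 7 of 20 markers were higher in both knockouts and 7 lower.

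Genes that work with these proteins were read from 5 lists. Over all genes the shares to set beside their counts are 0.528% higher and 0.783% lower for limma calls, 7.13% and 6.58% by unadjusted p, and 1.74% and 4.04% in the authors' deposited table, with a median log2 fold change of 0.005. Of 17 tested genes of collagen maturation 0 were called by limma, and 2 were higher and 1 lower by unadjusted p (threshold 0.05). Their median log2 fold change was 0.09. The authors' deposited table has 1 lower among the 20 genes of this list that it tested. The most abundant were the chaperones Ppib (179.1 and 153.0 FPKM against 189.2 and 168.3) and P4hb (155.8 and 146.1 against 161.7 and 153.9), and Bmp1, the protease that removes procollagen ends, at 41.0 and 38.8 against 44.1 and 46.0. Of 7 tested partners of basement membranes limma called 0, with 2 higher and 1 lower unadjusted and a median of 0.08. Among the 10 of them tested in the authors' deposited table, 2 were lower. Agrn, which binds laminin and dystroglycan, was at 86.0 and 81.7 FPKM against 72.1 and 80.8, Sparc, a collagen chaperone, at 57.8 and 54.8 against 60.6 and 58.8, and Smoc1 at 14.2 and 14.996 against 16.1 and 16.7. Of 20 tested receptors for laminin or collagen outside the integrins limma called 0, with 0 higher and 2 lower unadjusted and a median of 0.02. Among the 22 of them tested in the authors' deposited table, 1 was lower. Ddr1, a receptor kinase for collagen, overlapped between the groups at 115.8 and 107.2 FPKM against 105.5 and 123.8. Dag1, the dystroglycan that binds laminin, was at 64.3 and 65.3 against 60.3 and 63.5 and is named for its role, outside the naming rule. Mag, a myelin glycoprotein and the most abundant gene of that list, was at 501.5 and 471.6 against 353.8 and 373.8 (-0.42 as log2 fold change, with adjusted p = 0.0579 from limma). Rpsa, a ribosomal protein also known as a laminin receptor, was at 412.9 and 386.8 against 420.3 and 426.9.

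The list of other integrin ligands also takes in latent growth factors, such as Tgfb2, and proteins that bind them, and not every one is an established ligand. It held 1 rise and 1 fall by limma among 9 tested, with 4 higher and 2 lower by unadjusted p. Its median log2 fold change was 0.19. The authors' deposited table has 4 higher and 2 lower among the 16 genes of this list that it tested. Vcam1, a cell surface ligand of alpha4 beta1, rose from 5.23 and 5.02 to 9.11 and 8.60 FPKM (0.69 ± 0.074 SE as log2 fold change, with adjusted p = 0.0122 from limma). Itga4, its receptor subunit, had a mean of 0.160 FPKM and was not tested. Tgfb2, a growth factor held latent in the matrix, fell from 6.87 and 7.14 to 4.96 and 4.62 FPKM (-0.47 ± 0.077 SE as log2 fold change, with adjusted p = 0.0472 from limma). The most abundant ligands were the tenascins Tnr, at 306.2 and 297.5 FPKM against 321.2 and 311.0, and Tnc, at 22.5 and 21.0 against 18.5 and 17.8, and Mfge8, at 19.1 and 17.6 against 19.2 and 20.9, none past the limma test.

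Of 43 tested integrin adaptors, kinases and membrane partners, 2 rose and 0 fell by limma, with 6 higher and 4 lower unadjusted. Their median was -0.02. Among the 45 of them tested in the authors' deposited table, 3 were higher and 7 lower. Lims2, an adaptor of the integrin-linked kinase complex, rose from 30.2 and 32.6 to 44.6 and 49.7 FPKM (0.57 ± 0.083 SE as log2 fold change, with adjusted p = 0.0329 from limma), while its q in the authors' deposited table is 0.847. The most abundant were the kinase Fyn, at 519.6 and 516.4 FPKM against 561.3 and 515.9, the tetraspanin Cd9, at 340.5 and 347.6 against 430.9 and 417.3 (0.30 as log2 fold change, with adjusted p = 0.109 from limma), and the GTPase Rac1, at 343.3 and 386.0 against 346.9 and 355.0. The calls were lost whenever 1 library was left out, with limma adjusted p from 0.112 to 0.144 for Vcam1, 0.206 to 0.316 for Tgfb2 and 0.128 to 0.251 for Lims2.

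**Figure D5:**
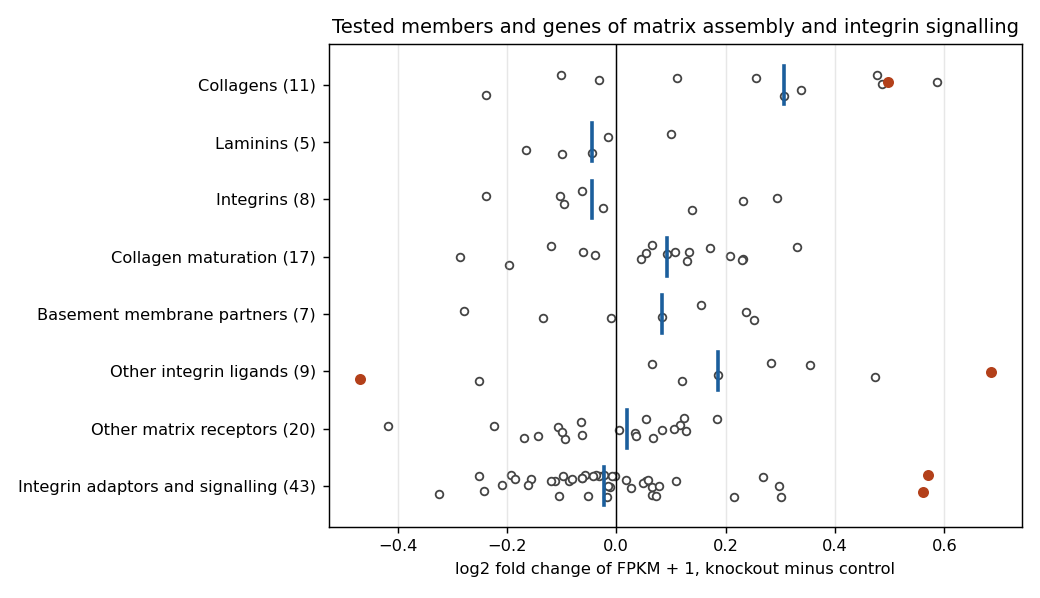
Log2 fold change of FPKM + 1, knockout minus control, with 1 point per tested gene in the 3 families and the 5 lists of partner genes, the number tested in brackets, a blue line at each median, and filled points for a limma adjusted p under 0.05. The collagens have the median furthest to the right, at 0.31, and Col11a1, Vcam1, Tgfb2 and Lims2 are among the filled points.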

How the data were processed

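The RNA of 4 samples, 2 control and 2 knockout, was sequenced as TruSeq libraries after 1 day of differentiation. CASAVA, TopHat, Cufflinks, Cuffdiff and mm10 are named in the submitters' processing notes, without versions. In the sources used here the annotation and the strand setting are not given. The authors deposited an FPKM for each gene and sample, and, per the file headers, a Cuffdiff table with 1 pooled FPKM per group and the log2 fold change, p-value and q-value of every gene.

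Where a symbol had several rows (258 symbols) they were summed, and 9 symbols were dropped because their status was not OK. Genes averaging 1 FPKM or more were fitted as log2(FPKM + 1) with limma 3.58.1 in R 4.3.3 (lmFit, eBayes with an expression trend, 2 residual and 4.60 prior degrees of freedom), without covariates, with Benjamini-Hochberg adjustment over all genes fitted. The pseudocount understates changes of low genes. The fit was tested on simulated data. Alternatives were a pseudocount of 0.1, no filter, a filter of 0.1 FPKM, scaling to TPM, quantile normalization, the highest row per symbol, the replicate number as a block and each sample left out.

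The members and gene lists were chosen with earlier results of these data known. The naming rule takes lncOL1, called members, the most abundant and most changed members of each family with their partner chains, the 3 most abundant tested genes and up to 3 called genes of each list, and defining markers of other cell types. Other members are named as descriptions, after their values were seen. A few genes covered by this rule are left unreported. Promoter sequences are from RefSeq (GRCm38.p6) and strands and exon overlaps from GENCODE M21.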

Additional observations from a re-analysis of the deposited data

How the results depend on the processing

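The count of called members was 1 higher and 0 lower with a pseudocount of 0.1, a filter of 0.1 FPKM, TPM scaling, quantile normalization and the highest row per symbol. With no filter 0 members were called, and over all genes 1 was higher and 3 lower, with 0 and 0 in the lists of partner genes. With each library left out 0 members were called higher, 11 to 16 genes were higher and 5 to 26 lower over all genes, and 0 higher and 0 lower in the partner lists. Each such fit leaves 1 sample in a group, which is assumed to vary like the other group, and fewer degrees of freedom. The number of lower genes in the partner lists, 1 in the fit of all samples, was 2 with a pseudocount of 0.1, TPM scaling, quantile normalization and the replicate block, and 0 with a filter of 0.1 FPKM.

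With the replicate number as a block 158 genes were higher and 183 lower, 4 of them members and all higher, adding Col4a1, Col9a1 and Col9a2 to Col11a1 (limma adjusted p = 0.0456, 0.0366, 0.0301 and 0.00629). The same-numbered samples did not deviate together across genes taken as a whole (r = -0.05, with genes not independent replicates). That value does not settle whether they were handled together, which is not known.

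5 members without a call turned direction with a library left out, over ranges of -0.13 to 0.067 for Col4a5, -0.069 to 0.039 for Lama5, -0.094 to 0.044 for Itgb5, -0.17 to 0.082 for Lama4 and -0.13 to 0.0012 for Itgb1. Without one library or another, further uncalled members kept their direction but moved by over 1.5 times. Their ranges were 0.13 to 0.38 for Col11a2, 0.19 to 0.48 for Col16a1, -0.15 to -0.054 for Col4a3, -0.13 to -0.058 for Itga7, 0.080 to 0.20 for Itgb7 and 0.023 to 0.18 for Lamb2. With 2 samples a group and unknown read depth, differences as small as those of most members here cannot be told from the spread.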

Other observations

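Some members lie next to each other on a chromosome, and their values are given side by side. Col19a1, a fibril-associated chain, lies 4944 bases from Col9a1 on chromosome 1, end to end on the opposite strand, and was at 0.121 and 0.137 FPKM in the controls and 0.236 and 0.230 in the knockouts, with the same direction as Col9a1. Col3a1 and Col5a2 lie 24624 bases apart on that chromosome, and Col5a2, at 0.416 and 0.241 FPKM against 0.286 and 0.273, overlapped between groups where Col3a1 did not. Itga2 and Itga1, 26039 bases apart on chromosome 13, had opposite directions, with no overlap between groups for either. Col18a1, whose C-terminal fragment is endostatin, was at 0.913 and 0.935 FPKM in the controls and 0.654 and 0.863 in the knockouts.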
